A study of Mus musculus with 18 samples.

Results

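The nuclear-encoded subunits of the mitochondrial respiratory chain were examined as 83 genes of the 55414 gene identifiers in the deposited count table. They were chosen by symbol, as the protein-coding genes named Ndufa, Ndufb, Ndufc, Ndufs, Ndufv, Uqcr, Cox4i, Cox5, Cox6, Cox7, Cox8 or Atp5, together with Sdha, Sdhb, Sdhc, Sdhd and Cyc1 and without the Ndufaf assembly factors. A gene also needed at least 180 counts over the 18 libraries, which 83 of 87 candidates had. This sum chose the members, and no difference between groups entered the choice. Just inside the minimum were Cox7a1 with 194 counts and Ndufa4l2 with 201, and just outside was Cox8b with 69. Cox7b2, Cox8c and a second identifier of Atp5o had 0 counts. Of the members 36 belong to complex I, 4 to complex II, 9 to complex III, 17 to complex IV and 16 to complex V. The last one, Atp5s, carries the family name but is not a subunit of the enzyme. Ndufa4 and its paralog Ndufa4l2 were counted with complex IV despite their names, and Cox7a2l, also counted there, is a factor that joins complexes III and IV into supercomplexes.

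RNA was sequenced from 4 groups of Wild Type C57BL/6J mice. The groups were spleen PM2.5 (n = 4), spleen air (n = 4), macrophage PM2.5 (n = 5) and macrophage air (n = 5). PM2.5 is fine particulate matter of polluted air, the control mice breathed filtered air, and exposure lasted 30 days. For the macrophage experiment the labels mention filtered air after those 30 days, and they do not say for how long or how the macrophages were isolated. Titles and treatment fields call the exposure CAP without spelling the letters out, and the protocol names PM2.5 as the one exposure besides filtered air. Neither the age or sex of the mice nor the number of mice behind a library is given in the sources used here.

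The respiratory chain sits in the inner mitochondrial membrane. Complex I takes electrons from NADH and complex II takes them from succinate, complex III hands them on through cytochrome c, and complex IV passes them to oxygen. Complexes I, III and IV pump protons, and complex V, the ATP synthase, uses the returning protons to make ATP. Every subunit of complex II is encoded in the nucleus, whereas the other complexes also contain subunits encoded in mitochondrial DNA. In the spleen, young red cells lose their mitochondria as they mature, and red pulp macrophages engulf old red cells.

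Depth was similar in the spleen groups, at 18427891 to 19906706 counts per spleen PM2.5 library and 16493694 to 20352346 per spleen air library, and ranged wider in macrophages, at 18848048 to 33844807 after PM2.5 and 18107264 to 29013034 in air. The members took 0.719 to 0.804% of the counts in spleen PM2.5 libraries and 0.816 to 1.01% in spleen air libraries. In macrophage PM2.5 libraries they took 0.537 to 0.728%, and in macrophage air libraries 0.522 to 0.559%. Some libraries stood apart. Macrophage PM2.5 replicate 1 had the highest level of its group in 78 of 83 members, and its treatment field names air although its title and description put it with the exposed group. The titles of all exposed libraries hold the word Air beside CAP, and CAP was taken to mark the exposed groups. Replicate 1 was grouped by its title, and the member results that rest on it are also given without it. Spleen air replicate 1 was the highest of its group in 64 members and spleen air replicate 2 the lowest in 66, and spleen PM2.5 replicate 1 was the lowest of its group in 55. The markers of red pulp macrophages summed to 13690 to 19540 CPM in macrophage PM2.5 and 16010 to 22470 CPM in macrophage air libraries, against 446.4 to 718.3 CPM in spleen PM2.5 and 264.1 to 563.1 CPM in spleen air libraries. Markers of B cells (2196 to 4017 CPM) and erythroid cells (2669 to 9002 CPM) were also present in the macrophage preparations. In spleen the 10 erythroid markers, none at 0, summed to 919.1 to 15620 CPM after PM2.5 and 320.4 to 3215 CPM in air. The 6 mesothelium markers summed to 24.2 to 220.0 CPM after PM2.5 and 2.75 to 4.80 CPM in air, and the 6 liver markers to 0.292 to 7.56 and 2.26 to 87.4 CPM. CPM is the count relative to the library total, scaled by TMM (a trimmed mean of the ratios between libraries) over all 18 libraries. Fold changes are from edgeR fits to the counts and can differ slightly from ratios of CPM.

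The first comparison asked how respiratory chain transcripts differed in the whole spleen after 30 days of PM2.5. Nearly all of them were lower, and each by a modest amount: 77 of 83 members had a negative log2 fold change, with a median of -0.44, where the median of all 16551 genes tested was 0.017. The medians were -0.47 in complex I, -0.32 in complex II, -0.45 in complex III, -0.42 in complex IV and -0.40 in complex V. No member passed an adjusted p of 0.05 with edgeR, where 0.0121% of all genes tested did, and the smallest adjusted p of a member was 0.124. At an unadjusted p under 0.05 there were 57 members lower, where 7.76% of all genes tested were, and 1 higher. The exposed and the air libraries did not overlap, with the exposed lower, in 18 members, and 4.66% of all genes tested had this pattern. DESeq2 called 14 members lower and 1 higher, where it called 1.24% of all genes with an adjusted p lower and 3.19% higher. limma-voom called 0 members and 1 of all 16551 genes. In bulk tissue, fewer cells of a type and less RNA per cell cannot be told apart. The 9 T cell markers, none at 0, summed to 792.8 to 1002 CPM after PM2.5 and 1015 to 1404 CPM in air, without overlap. The 8 B cell markers, also none at 0, summed to 4016 to 5422 and 5337 to 6384 CPM, with overlap. The part of either in the lower values was not tested.

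**Figure D1:**
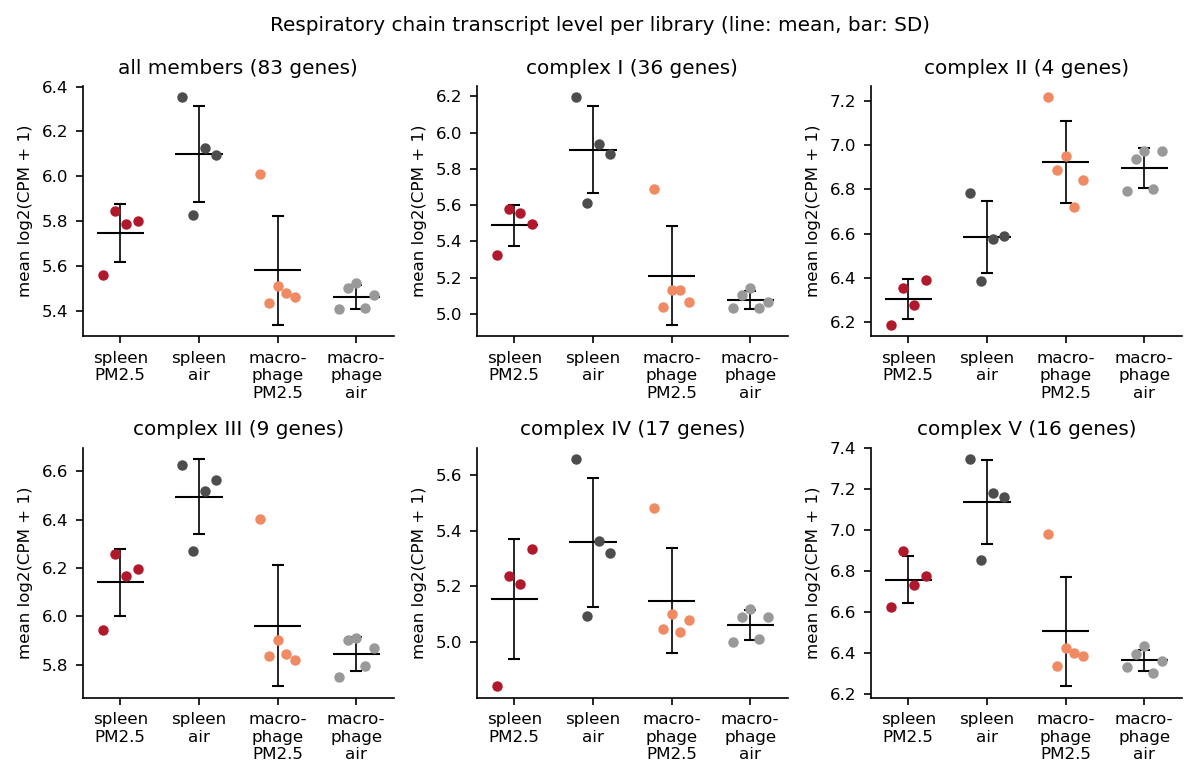
Mean log2(CPM + 1) over all members and over the members of each complex, 1 point per library, with the group mean (line) and SD (bar). For all members spleen PM2.5 libraries lie between 5.56 and 5.84 and spleen air libraries between 5.83 and 6.35, and macrophage PM2.5 replicate 1, at 6.01, lies above the other macrophage libraries at 5.41 to 5.53.

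The mean log2(CPM + 1) over the members was 5.56, 5.84, 5.79 and 5.80 in spleen PM2.5 replicates 1 to 4, and 6.35, 5.83, 6.13 and 6.09 in spleen air replicates 1 to 4. Spleen air replicate 2 thus lay within the exposed range, and the other 3 air libraries lay above it. Without that library 11 members passed the threshold, all lower after PM2.5, where 0.876% of all genes tested were called lower, and the median was -0.53. Without spleen air replicate 1, the highest library, none passed and the median was -0.33.

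Complex I, which takes electrons from NADH, was lower in 35 of 36 members, 27 of them at an unadjusted p under 0.05. Ndufb4, an accessory subunit of its membrane arm, had 16.9, 16.5, 20.4 and 18.2 CPM in spleen PM2.5 libraries, against 32.3, 22.7, 30.7 and 26.5 CPM in spleen air libraries. All 4 exposed libraries lay below all 4 air libraries (log2 fold change -0.64, SE 0.15, edgeR adjusted p = 0.124). Ndufv3, an accessory subunit of the NADH-oxidising module, averaged 32.6 ± 1.40 CPM after PM2.5 and 46.7 ± 6.77 CPM in air (SD, n = 4 each), again without overlap. The lowest fold changes were those of Ndufa2, a small accessory subunit of the peripheral arm (-0.88, SE 0.24), and Ndufa5, another one (-0.73, SE 0.20). Ndufa2 ranged from 48.5 to 80.3 CPM after PM2.5 and from 66.6 to 156 CPM in air, so its groups overlapped. Of the 7 core subunits, the ones that bacteria share, 6 were lower and 4 at an unadjusted p under 0.05. Nearest to 0 among them were the largest iron-sulfur subunit and the one that binds NADH. Ndufs1, the iron-sulfur subunit, averaged 69.1 ± 6.03 CPM after PM2.5 and 76.5 ± 11.8 CPM in air, and Ndufv1, which binds NADH, averaged 60.0 ± 7.19 and 57.0 ± 1.97 CPM (SD, n = 4 each). Ndufv1 was the 1 complex I member with a positive value (log2 fold change 0.07, SE 0.12, unadjusted p = 0.564).

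Complex II, succinate dehydrogenase, also serves the tricarboxylic acid cycle, and all 4 of its genes were lower, by less than the complex I median. Sdhc, a membrane anchor, had 44.1, 46.9, 45.8 and 55.6 CPM in spleen PM2.5 libraries and 58.5, 56.0, 68.2 and 64.5 CPM in spleen air libraries. The groups did not overlap, although the highest exposed and the lowest air library were close (log2 fold change -0.37, SE 0.12, adjusted p = 0.174). Sdhd, the second anchor, had a log2 fold change of -0.33 (SE 0.14), Sdhb, the iron-sulfur subunit, of -0.30 (SE 0.15), and Sdha, the flavoprotein that oxidises succinate, of -0.18 (SE 0.12). Those 3 overlapped between groups.

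In complex III 7 of 9 members were lower. Uqcrq, a small subunit of the membrane part, had 53.2, 64.9, 67.4 and 65.5 CPM after PM2.5 and 115, 72.2, 90.6 and 99.9 CPM in air, with no overlap (log2 fold change -0.59, SE 0.15, adjusted p = 0.126). Uqcrh, the hinge protein at the cytochrome c docking site, had 128, 156, 193 and 179 CPM after PM2.5 and 331, 167, 278 and 304 CPM in air. Only spleen air replicate 2 lay within the exposed range (log2 fold change -0.72, SE 0.20). Uqcrfs1, the Rieske iron-sulfur protein, averaged 73.3 ± 5.46 CPM after PM2.5 and 100 ± 12.9 CPM in air (SD, n = 4 each), without overlap. Cyc1, the haem-bearing cytochrome c1, averaged 73.2 ± 14.7 and 70.9 ± 17.8 CPM, and Uqcrc1, a core protein of the matrix side, 118 ± 12.9 and 105 ± 28.1 CPM. Their log2 fold changes of 0.04 (SE 0.20) and 0.16 were the 2 positive values of the complex.

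Complex IV members were lower in 15 of 17 cases. Cox6b1, a subunit on the intermembrane side, had 77.9, 98.7, 107 and 104 CPM in spleen PM2.5 libraries and 199, 112, 148 and 167 CPM in spleen air libraries. The highest exposed library stayed below the lowest air library (log2 fold change -0.69, SE 0.17, adjusted p = 0.126). Cox4i1, a regulatory subunit that binds ATP, had 245, 297, 284 and 306 CPM after PM2.5 and 399, 342, 412 and 443 CPM in air, also without overlap (log2 fold change -0.50, SE 0.12, adjusted p = 0.126). Cox8a, a small membrane subunit, did not overlap either (log2 fold change -0.37, SE 0.14). Cox7a2 (-0.45), Cox7b (-0.44) and Ndufa4 (-0.42) had similar log2 fold changes with overlapping groups, and Cox6a1, the common partner of the muscle form Cox6a2, was closer to 0 (-0.16, SE 0.13).

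Complex V was lower in 15 of 16 members. Atp5mpl, a small subunit of the membrane part, had 43.5, 50.9, 55.1 and 50.3 CPM in spleen PM2.5 libraries and 101, 57.7, 85.8 and 75.1 CPM in spleen air libraries, without overlap (log2 fold change -0.68, SE 0.16, adjusted p = 0.124). Atp5e, the epsilon subunit of the rotor stalk, had 95.6, 93.0, 124 and 111 CPM after PM2.5 and 186, 125, 169 and 153 CPM in air. Its groups nearly touched, at 124.5 CPM in spleen PM2.5 replicate 3 and 124.6 CPM in spleen air replicate 2 (log2 fold change -0.58, SE 0.14, adjusted p = 0.126). Both subunits of the catalytic ring lay nearer to 0. Atp5a1, the alpha subunit, averaged 420 ± 46.1 CPM after PM2.5 and 473 ± 23.2 CPM in air (log2 fold change -0.17, SE 0.12), and Atp5b, the beta subunit that holds the active site, 480 ± 62.7 and 471 ± 40.0 CPM (log2 fold change 0.03, SE 0.13; SD, n = 4 each).

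**Figure D2:**
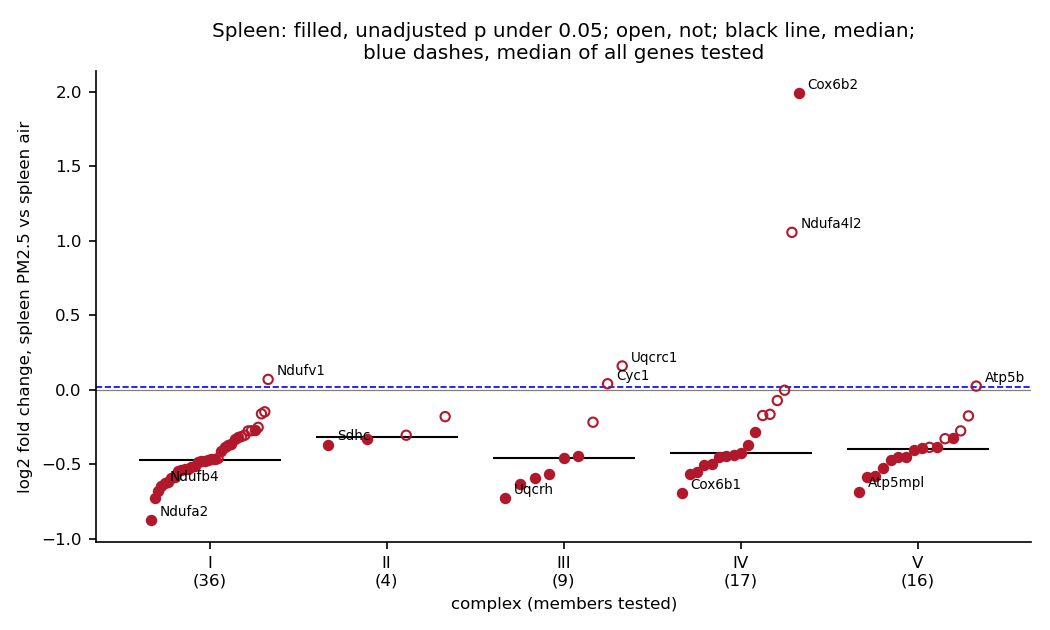
Log2 fold change of each member in spleen PM2.5 against spleen air, by complex, with the number of members tested below each complex. Most points lie below 0 in every complex; Cox6b2 at 1.99 and Ndufa4l2 at 1.06 stand above the others, and filled points are members with an unadjusted p under 0.05.

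The isoforms with a restricted tissue range, 5 of the members, had log2 fold changes from -0.17 to 1.99. Cox6b2, a form best known from testis, had 1.59, 9.32, 4.95 and 10.6 CPM in spleen PM2.5 libraries, against 2.71, 1.59, 0.757 and 1.59 CPM in spleen air libraries. It was above every air library in 3 of 4 exposed libraries, and spleen PM2.5 replicate 1 lay among the air libraries (log2 fold change 1.99, SE 0.56, unadjusted p = 0.00458, adjusted p = 0.14). It passed with DESeq2 (adjusted p = 0.00837), and without spleen PM2.5 replicate 1 with edgeR (adjusted p = 0.0471). The erythroid regulator Klf1 was at 1.002, 77.4, 7.46 and 27.2 CPM in the same exposed libraries and at 3.61, 0.144, 1.23 and 2.20 CPM in the air libraries, and its part in the Cox6b2 result was not tested. Ndufa4l2, a paralog of Ndufa4 known to be induced by low oxygen, had 0.0418, 1.25, 1.57 and 2.38 CPM after PM2.5 and 0.301, 0.625, 0.993 and 0.549 CPM in air, levels of few counts with overlapping groups (log2 fold change 1.06, SE 0.82). Cox4i2, the form of lung and low oxygen, Cox6a2, the form of heart and skeletal muscle, and Cox7a1, also of muscle, lay near 0, at -0.17 (SE 0.73), -0.07 (SE 0.41) and -0.0025 (SE 0.58) on the log2 scale.

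Other mitochondrial genes were lower in spleen too, as were genes of the cytosolic ribosome, and no gene of the following lists passed the threshold. Of 45 tested assembly factors of the respiratory chain 39 were lower, with a median of -0.28. Uqcc2, which assists complex III assembly, averaged 18.2 CPM after PM2.5 and 29.5 CPM in air (log2 fold change -0.70, adjusted p = 0.124), and Ndufaf8 22.5 and 40.1 CPM (-0.84, adjusted p = 0.131). Of 78 genes of the mitochondrial ribosome 72 were lower, with a median of -0.36. Mrps16 averaged 30.2 CPM after PM2.5 and 46.1 CPM in air, and Mrps14 27.3 and 45.0 CPM. The 13 subunits encoded in mitochondrial DNA had a median of -0.68, with 12 lower and none at an unadjusted p under 0.05. In mt-Co3 the means were 17.8 CPM after PM2.5 and 31.3 CPM in air. Import and outer membrane genes were lower in 13 of 15 cases (median -0.23), among them Tomm22 of the entry gate, with 83.8 CPM after PM2.5 and 124 CPM in air (adjusted p = 0.124), and Tomm20 (-0.49). The tricarboxylic acid cycle (11 of 13 lower, median -0.18, lowest p for Sucla2 and Cs), cytochrome c and coenzyme Q synthesis (10 of 12 lower, median -0.21, lowest p for Cycs and Coq3) and the regulators of mitochondrial gene expression (8 of 15 lower, median -0.07) stood nearer to 0. Of the regulators Tfam, which packages mitochondrial DNA, averaged 68.0 CPM after PM2.5 and 92.3 CPM in air (log2 fold change -0.44, adjusted p = 0.147), and Tefm had -0.53. All 76 tested genes of the cytosolic ribosome were lower, all at an unadjusted p under 0.05, with a median of -0.63. Rpl36 averaged 443 CPM after PM2.5 and 774 CPM in air (adjusted p = 0.0941), and Rps13 807 and 1348 CPM (adjusted p = 0.108).

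Transcript length moved with these values. Protein-coding genes that were not members and whose longest transcript was under 1000 bases had a median log2 fold change of -0.33 in spleen (530 genes), and those of at least 4000 bases 0.09 (5221 genes). The 40 members under 1000 bases had -0.46 and the 26 members of 1000 to 2000 bases -0.43, where 2210 other genes of that range had -0.11. The 13 members of 2000 to 4000 bases had -0.31, where 5627 other genes had -0.0045, and the 4 longer members had -0.42. With offsets for transcript length and GC content in the fit, 78 of 83 members were lower with a median of -0.33, and 44 had an unadjusted p under 0.05 in that direction, where 9.53% of all genes tested had.

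The second comparison asked the same of macrophages isolated from the spleen. Of the members 81 passed the filter on low counts, and Ndufa4l2 and Cox7a1 did not. The fold changes were small and nearly all positive: 79 of 81 had a positive log2 fold change, whose median was 0.16, where that of all 15696 genes tested was 0.0062. With edgeR no member passed the threshold, and of all genes tested 0% did. At an unadjusted p under 0.05 there were 2 members higher, where 6.24% of all genes tested were, and none lower. DESeq2 called 1 member higher, Cox6b2, where it called 0.774% of all genes with an adjusted p higher, and limma-voom called 0 members and 0 genes. The medians were 0.16 in complexes I, IV and V, 0.09 in complex III and 0.03 in complex II.

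Almost all of this rested on macrophage PM2.5 replicate 1. The mean log2(CPM + 1) over the members was 6.01 in that library, 5.44 to 5.51 in the other 4 exposed libraries, and 5.41 to 5.53 in the 5 air libraries. Without it, 40 of 81 members were higher and 41 lower, and the median was -0.0034. Counted with the air group, as its treatment field would have it, it turned the median to -0.12. In the same library the cytosolic ribosomal genes stood at a mean log2(CPM + 1) of 9.71, against 8.91 to 9.18 in the other exposed and 8.95 to 9.10 in the air libraries. Protein-coding genes under 1000 bases outside both sets stood at 3.47, against 3.09 to 3.13 and 3.08 to 3.12, and those over 4000 bases at 4.47, against 4.72 to 4.76 and 4.70 to 4.74. The library had 0.728% of its counts in the members and a total of 18848048 counts, inside the range of the air group.

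**Figure D3:**
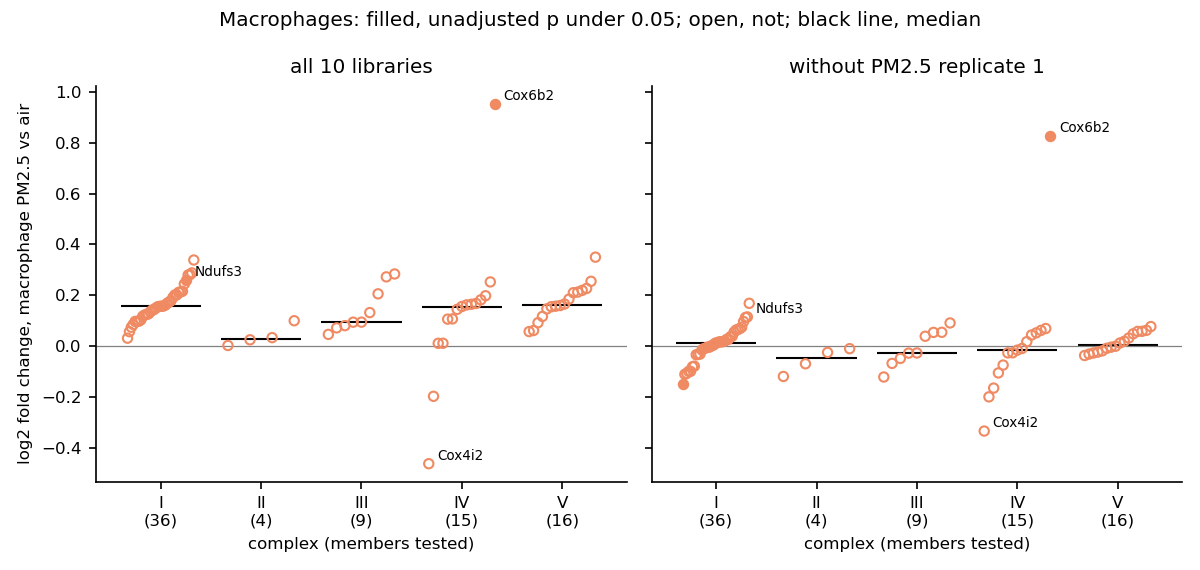
Log2 fold change of each tested member in macrophage PM2.5 against macrophage air, by complex, with all 10 libraries (left) and without PM2.5 replicate 1 (right). The medians of the complexes lie between 0.03 and 0.16 on the left and between -0.05 and 0.013 on the right, and Cox6b2 stays apart at 0.95 and 0.82.

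Ndufs3, a core subunit of the peripheral arm of complex I, was the 1 of 81 members whose groups did not overlap with the exposed higher, where 1.38% of all genes tested had this pattern. It had 69.1, 44.4, 50.2, 48.1 and 44.5 CPM in macrophage PM2.5 libraries and 44.0, 42.4, 44.3, 42.4 and 41.5 CPM in macrophage air libraries. Apart from replicate 1 the separation was narrow, with 44.39 CPM in the lowest exposed and 44.27 CPM in the highest air library (log2 fold change 0.26, SE 0.12, unadjusted p = 0.0446, adjusted p = 0.445). Without replicate 1 the value was 0.12 (SE 0.056, unadjusted p = 0.0643). Cox6b2 had 5.02, 3.11, 4.26, 2.17 and 4.29 CPM after PM2.5 and 2.11, 2.24, 1.32, 1.70 and 2.47 CPM in air. In 4 of 5 exposed libraries it was above every air library (log2 fold change 0.95, SE 0.25, unadjusted p = 0.00225, adjusted p = 0.267), and without replicate 1 it was 0.82 (SE 0.24, adjusted p = 0.263). Klf1 was at 25.03, 34.9, 40.7, 14.7 and 54.1 CPM in these exposed libraries and at 12, 24.7, 1.05, 15.7 and 40.3 CPM in the air libraries, and its part in this result was not tested.

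Replicate 1 also set the exposed mean of other members. Uqcrh had 134 CPM in macrophage PM2.5 replicate 1 and 72.7 to 77.5 CPM in the other exposed libraries, against 67.1 to 76.5 CPM in air. Cox6b1 had 100 CPM in that library and 66.1 to 68.4 CPM in the others, against 60.0 to 71.0 CPM in air, and Cox4i1 338 CPM and 186 to 205 CPM, against 190 to 208 CPM. With all libraries complex II differed least: Sdha averaged 267 ± 9.97 CPM after PM2.5 and 263 ± 9.80 CPM in air, and Sdhc 104 ± 19.3 and 104 ± 12.6 CPM (SD, n = 5 each). The catalytic subunits of complex V, Atp5a1 (600 ± 62.4 and 578 ± 28.2 CPM) and Atp5b (608 ± 54.7 and 563 ± 17.6 CPM), and Ndufv1 (69.2 ± 12.3 and 62.8 ± 4.50 CPM) and Cyc1 (77.1 ± 7.61 and 74.9 ± 3.22 CPM), also differed by less than the spread within the exposed group. Without replicate 1 complex II no longer differed least. All 4 of its genes were then lower, with a median of -0.0465. The medians were then 0.0128, -0.0263, -0.0152 and 0.00643 in complexes I, III, IV and V. Cox4i2 was lower, at 1.27, 2.95, 2.21, 2.59 and 2.62 CPM after PM2.5 and 2.47, 2.84, 4.22, 3.45 and 3.19 CPM in air, with overlap (log2 fold change -0.46, SE 0.22, unadjusted p = 0.0603).

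In the pathway lists too no gene passed in macrophages. Higher values were seen for 76 of 76 genes of the cytosolic ribosome (median 0.18, none at an unadjusted p under 0.05), 74 of 78 of the mitochondrial ribosome (0.15), 33 of 45 assembly factors (0.10), 15 of 15 import and outer membrane genes (0.10) and 12 of 13 subunits encoded in mitochondrial DNA (0.15). The tricarboxylic acid cycle was at 0.016 (10 of 13 higher), cytochrome c and coenzyme Q synthesis at 0.037 (8 of 12) and the regulators at -0.014 (7 of 15). Atpaf2, an assembly factor of complex V, averaged 23.5 CPM after PM2.5 and 20.5 CPM in air (unadjusted p = 0.0294, adjusted p = 0.4), and Vdac3, a channel of the outer membrane, 67.7 and 59.3 CPM (adjusted p = 0.4). In macrophage PM2.5 replicate 1 the mean log2(CPM + 1) of the mitochondrial ribosome was 4.922. It was 4.415 to 4.481 in the other exposed libraries and 4.380 to 4.486 in air. Import genes stood at 6.644 in replicate 1, against 6.266 to 6.321 and 6.244 to 6.278. Subunits encoded in mitochondrial DNA stood at 7.326, inside the 6.935 to 7.469 of the other exposed libraries. Fold changes of these lists and genes without replicate 1 are not given.

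Whether the values after PM2.5 differed between the preparations was tested as the difference of the 2 effects, macrophage minus spleen, in a joint fit of all 18 libraries. The labels mention filtered air after exposure for the macrophage experiment. Material, experiment and time after exposure therefore cannot be told apart in this difference. The median of the members was 0.59, where that of all 17779 genes tested was -0.032, and 76 of 83 were positive. One member passed, where 1.46% of all genes tested did: Cox6b1, whose effect was 0.20 in macrophages and -0.69 in spleen (difference 0.88, SE 0.21, adjusted p = 0.047). At an unadjusted p under 0.05 there were 61 members with a positive difference and none with a negative one, where 10.3% of all genes tested had a positive one. Next by p were Ndufs3 (0.72, SE 0.18, adjusted p = 0.0519), Ndufb4 (0.71, SE 0.18, adjusted p = 0.0523) and Uqcrq (0.87, SE 0.22, adjusted p = 0.0539). In complex V, Atp5mpl (0.93, SE 0.27) and Atp5g1, one of the genes for the c-ring (0.74, SE 0.22), had adjusted p-values of 0.0739 and 0.0749.

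Without macrophage PM2.5 replicate 1 no member passed and the median difference was 0.43, with that library counted as air it was 0.31, and without spleen air replicate 2 there were 36 calls, all positive, where 3.53% of all genes tested were called with a positive difference. The Cox6b1 call ended in 16 of the 18 fits that each left out 1 library, the exceptions being spleen air replicate 2 and macrophage PM2.5 replicate 2. Complex II had the smallest median difference (0.36), and Sdhb the largest of its genes (0.40, SE 0.18, adjusted p = 0.217). Ndufv1 (0.07), Cyc1 (-0.0018) and Atp5b (0.09) differed little, and all 5 restricted isoforms had negative differences, led by Cox6b2 (-1.05, SE 0.61, adjusted p = 0.337). Of these isoforms Cox7a1 and Ndufa4l2 had failed the filter on low counts in the macrophage experiment alone.

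The baseline levels were compared between macrophage air and spleen air libraries. Material and experiment cannot be told apart here, and the spleen air libraries are the same as in the first comparison. Most members were lower in macrophages: 64 of 83 were called lower, where 33.3% of all genes tested were, and 6 were called higher, where 33.3% of all genes tested were. The median log2 fold change was -0.84, and that of all genes tested 0.00054. Complex I had 31 of 36 called lower and none higher. With TMM scaling complex II did not share this direction. Of its 4 genes 2 were called higher, where 33.3% of all genes tested were, and none lower. Upper-quartile scaling gave 1 gene of complex II called higher and 1 called lower, with a median of -0.04.

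Sdhc had 92.2, 111, 114, 89.5 and 115 CPM in macrophage air libraries and 58.5, 56.0, 68.2 and 64.5 CPM in spleen air libraries, with no overlap (log2 fold change 0.76, SE 0.13, adjusted p = 4.07e-05). Sdha had 246, 267, 268, 264 and 270 CPM in macrophage air and 247, 185, 209 and 191 CPM in spleen air, where spleen air replicate 1 reached the lowest macrophage library (log2 fold change 0.34, SE 0.085, adjusted p = 0.00174). Sdhb (0.17, SE 0.13) and Sdhd (-0.04, SE 0.13) were not called. Complex II took 8.90 to 9.53% of the summed member CPM in macrophage air and 4.81 to 5.27% in spleen air libraries. After PM2.5 the shares were 7.74 to 9.17% in macrophages and 5.18 to 5.75% in spleen, so the preparations did not overlap in either exposure. Under upper-quartile scaling, which moved the median of all genes to -0.29, Sdhc was still called higher (0.46), Sdha was not called (0.04), Sdhb turned negative and Sdhd was called lower (-0.33).

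**Figure D4:**
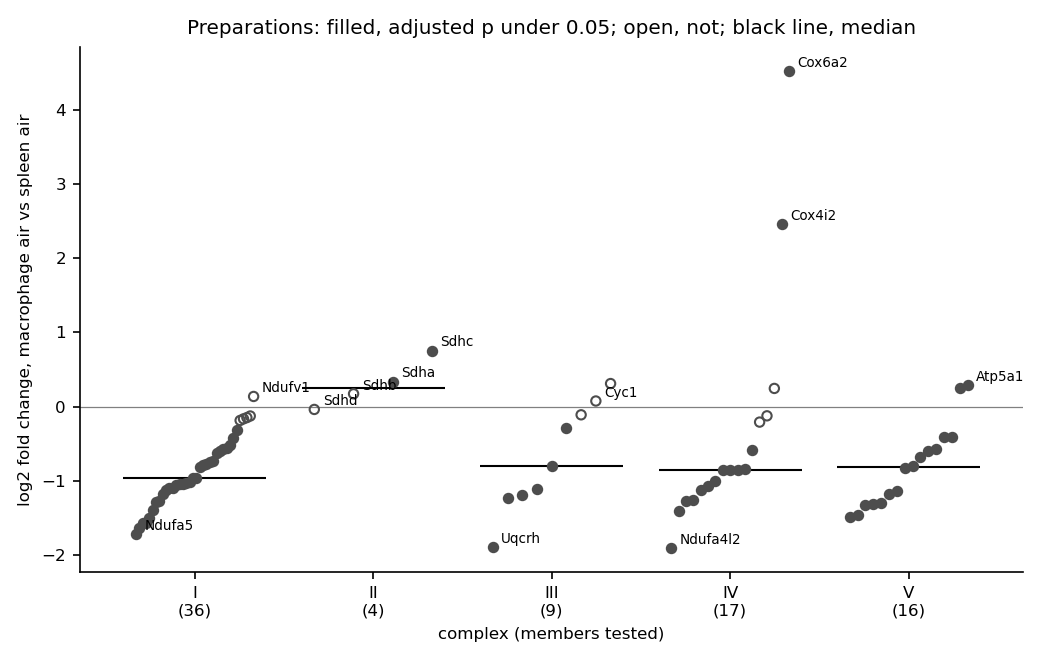
Log2 fold change of each member in macrophage air against spleen air, by complex; filled points passed an adjusted p of 0.05. Complexes I, III, IV and V have medians between -0.95 and -0.79 and complex II has 0.26, and Cox6a2 at 4.52 and Cox4i2 at 2.46 lie far above the rest.

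Ndufa5, with a log2 fold change of -1.72, had the lowest value of complex I. Ndufa6 had 33.3 to 41.5 CPM in macrophage air and 81.7 to 125 CPM in spleen air (log2 fold change -1.56, SE 0.14, adjusted p = 1.5e-08), and Ndufb7 31.7 to 36.1 and 75.1 to 116 CPM (-1.56, SE 0.15, adjusted p = 4.15e-08). Ndufv1 (0.14, SE 0.11) and Ndufs1 (-0.15, SE 0.098) were not called. Uqcrh had 67.4, 75.7, 76.5, 67.1 and 76.4 CPM in macrophage air and 331, 167, 278 and 304 CPM in spleen air, the lowest value of complex III (log2 fold change -1.89, SE 0.19, adjusted p = 7.88e-08). Uqcr10 was at -1.19 (SE 0.15), Uqcrfs1 at -0.28 (SE 0.12, adjusted p = 0.0482), and Cyc1 was not called (0.08, SE 0.15). In complex V, Atp5l (-1.49, SE 0.15) and Atp5g2 of the c-ring (-1.13, SE 0.11) were lower without overlap. Atp5a1 averaged 578 ± 28.2 CPM in macrophage air and 473 ± 23.2 CPM in spleen air (SD, n = 5 and n = 4), and Atp5b 563 ± 17.6 and 471 ± 40.0 CPM. Both were called higher (0.29 and 0.26, adjusted p = 0.012 and 0.0292) and neither overlapped, but upper-quartile scaling turned both slightly negative.

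Length moved with this comparison as well. Genes that were not members had a median log2 fold change of -0.75 under 1000 bases (581 genes) and 0.28 at 4000 bases and over (5325 genes). The 40 members under 1000 bases had -1.04 and the 26 members of 1000 to 2000 bases -0.60. The 13 members of 2000 to 4000 bases had -0.31, and the 4 longer members had -1.08. With offsets for length and GC content 61 members were called lower and 7 higher, where 34.6% and 32.9% of all genes tested were, and the median was -0.67. Under the same offsets complex II had 3 genes called higher. Between the 2 exposed groups in place of the air groups the difference of the preparations was smaller: 30 members were called lower and 10 higher, where 27.7% and 28.3% of all genes tested were, with a median of -0.24, and all 4 genes of complex II were called higher.

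Levels per kilobase of the longest annotated transcript put Atp5b (294 ± 9.21 CPM per kb) and Cox4i1 (260 ± 10.6) first in macrophage air libraries, whereas Cox4i1 (521 ± 55.4), Cox7a2l (357 ± 65.0) and Uqcrh (337 ± 89.9) led in spleen air libraries (SD, n = 5 and n = 4). After PM2.5 the order began with Atp5b (318 ± 28.5) and Cox4i1 (294 ± 83.6) in macrophages and with Cox4i1 (370 ± 35.2), Cox8a (255 ± 21.9) and Atp5b (250 ± 32.7) in spleen. Neighbours in this order lay within 1 SD of each other for Atp5b and Cox4i1 in macrophage PM2.5, Cox8a and Atp5b in spleen PM2.5, and Cox7a2l and Uqcrh in spleen air. On this scale Cox7a1 and Ndufa4l2 were among the 3 lowest members in every group. A longest transcript need not be the one used, so a gene with a long annotated form can rank too low.

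Of the restricted isoforms 2 were higher in the macrophage preparations. Cox4i2 had 2.47, 2.84, 4.22, 3.45 and 3.19 CPM in macrophage air and 1.44, 0.480, 0.189 and 0.275 CPM in spleen air, with no overlap (log2 fold change 2.46, SE 0.46, adjusted p = 0.000126). Cox6a2 had 57.5, 54.4, 58.8, 54.4 and 77.3 CPM in macrophage air and 3.85, 1.44, 2.98 and 2.31 CPM in spleen air (log2 fold change 4.52, SE 0.28, adjusted p = 6.41e-11). Cox6a2 (GRCm38 chromosome 7, 128205435 to 128206387, minus strand) lies inside the span of Itgad (chromosome 7, 128154376 to 128223816, plus strand), which encodes the integrin alpha chain CD11d of red pulp macrophages. Itgad stood at 1680, 1841, 1738, 1692 and 2359 CPM in macrophage air and at 8.0, 3.07, 0.851 and 0.659 CPM in spleen air. Cox6a2 amounted to 2.95 to 3.42% of Itgad in macrophage air and to 3.14 to 3.57% in macrophage PM2.5 libraries, a near constant share, whereas in spleen it amounted to 14.4 to 29.9% after PM2.5 and 46.9 to 350% in air. Whether the authors' counting used strand is not given in the sources used here, so reads of the 2 genes cannot be told apart. The 5 skeletal muscle markers summed to 3.67 to 5.55 CPM in macrophage air and 12.03 to 17.8 CPM in spleen air. Cox6b2 was not called (0.25, SE 0.45), and Cox7a1 (-1.07, adjusted p = 0.0396) and Ndufa4l2 (-1.90, adjusted p = 0.0463) were called lower, at no more than 1.18 CPM in any air library. Cox7a1 and Ndufa4l2 had failed the filter on low counts in the macrophage experiment alone. They entered the joint fit only through the spleen libraries, where they are higher, so these calls are not support for a lower level. The 64 members called lower include both. In all, 30 of 83 members share exon bases with another annotated gene, 25 of them with genes on the opposite strand only.

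**Figure D5:**
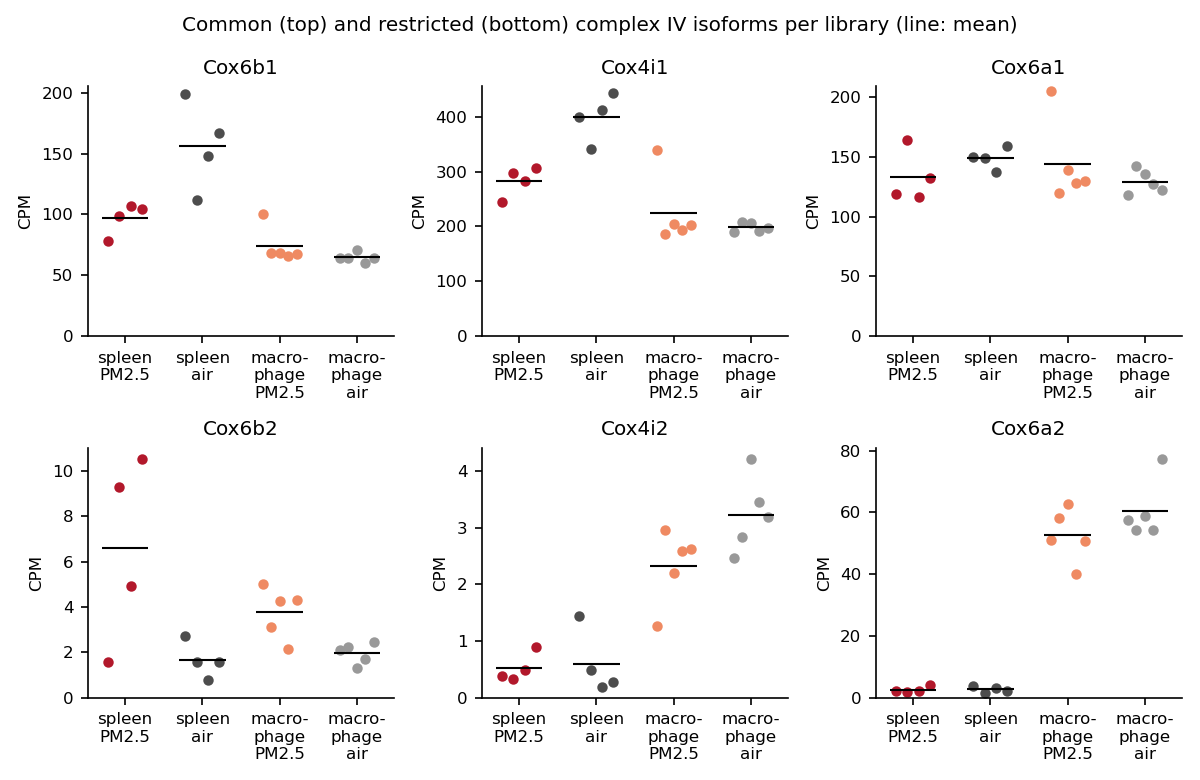
CPM per library of 3 common complex IV subunits (top) and their restricted isoforms (bottom), with group means as lines, on axes that start at 0. Cox6b1 and Cox4i1 are lower in spleen PM2.5 than in spleen air, Cox6b2 is higher in 3 of 4 spleen PM2.5 libraries, and Cox4i2 and Cox6a2 are higher in both macrophage groups than in both spleen groups.

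Promoters were compared because most members were lower together in spleen after PM2.5 and between the preparations. Many respiratory chain genes are known to be bound near their start by NRF1, by the ETS factor GABPA and by YY1. RefSeq windows of 250 bases before to 50 after the start (GRCm38.p6) were found for 67 of 83 members. Exact letters were searched on both strands. The NRF1 core GCATGCGC was in 10 of 67 members (14.9%), against 824 of 27025 genes (3.05%). The ETS core CCGGAAG was in 16 (23.9%), against 2683 genes (9.93%), and the YY1 core AAGATGGCG in 7 (10.4%), against 443 (1.64%). At least 1 of the 3 was in 27 members (40.3%), against 3668 genes (13.6%). The shares are over genes with a window, and a match is not a bound site. Of 49 members with a window that were lower in spleen at an unadjusted p under 0.05, 21 held at least 1 core (42.9%). Of the other 18 members with a window 6 did (33.3%). Whether the cores go with the spleen values was not tested.

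The windows of 6 members, chosen after their values were seen, follow, 5′ to 3′ on the gene strand, from 180 bases before to 20 after the most upstream annotated start, with matches in capitals. Cox6b1 (chr7:30626132-30626331, minus) was the call of the difference, and Uqcrh (chr4:116075052-116075251, minus) and Atp5e (chr2:174464086-174464285, minus) were among the lower members in spleen. Each holds 1 ETS core on the strand opposite to the gene, at 9 bases after, 9 before and 98 before the start.
Cox6b1: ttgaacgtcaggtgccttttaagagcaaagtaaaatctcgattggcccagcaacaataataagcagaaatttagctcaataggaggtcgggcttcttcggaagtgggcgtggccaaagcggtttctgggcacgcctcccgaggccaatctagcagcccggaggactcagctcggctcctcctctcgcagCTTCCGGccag
Uqcrh: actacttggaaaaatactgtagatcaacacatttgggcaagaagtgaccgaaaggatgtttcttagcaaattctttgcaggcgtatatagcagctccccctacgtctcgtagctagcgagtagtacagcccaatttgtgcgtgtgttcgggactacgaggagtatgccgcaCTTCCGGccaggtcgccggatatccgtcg
Atp5e: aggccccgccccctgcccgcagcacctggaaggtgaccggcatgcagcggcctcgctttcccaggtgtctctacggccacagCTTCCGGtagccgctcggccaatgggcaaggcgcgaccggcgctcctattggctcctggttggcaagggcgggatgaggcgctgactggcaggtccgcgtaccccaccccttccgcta
Uqcr11 (chr10:80406811-80407010, minus), a small complex III subunit with a log2 fold change of -0.63 in spleen, holds an ETS core 57 bases before and an NRF1 core 5 bases after the start, both on the gene strand.
Uqcr11: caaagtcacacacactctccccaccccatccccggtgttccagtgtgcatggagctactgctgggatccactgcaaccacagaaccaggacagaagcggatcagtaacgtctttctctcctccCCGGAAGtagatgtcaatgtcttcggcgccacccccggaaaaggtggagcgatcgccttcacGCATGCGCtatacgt
Atp5b (chr10:128083093-128083292, plus) and Cox6b2 (chr7:4753075-4753274, minus), members that were not lower in spleen, hold none of the 3 in these letters, which says nothing of the factors themselves. Ndufb4, Ndufv3, Ndufa5 and Uqcrfs1, lower in spleen, also hold none in their windows, and Uqcrc1, with a log2 fold change of 0.16, holds an NRF1 core.
Atp5b: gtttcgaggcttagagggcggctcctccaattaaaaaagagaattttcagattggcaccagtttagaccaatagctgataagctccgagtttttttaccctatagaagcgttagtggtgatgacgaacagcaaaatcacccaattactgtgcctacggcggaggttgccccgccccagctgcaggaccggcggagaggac
Cox6b2: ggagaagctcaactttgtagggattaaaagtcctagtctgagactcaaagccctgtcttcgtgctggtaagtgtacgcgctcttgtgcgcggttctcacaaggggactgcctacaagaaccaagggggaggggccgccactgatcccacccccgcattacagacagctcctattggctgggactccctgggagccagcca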

How the data were processed

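RNA-seq libraries of spleen (4 PM2.5, 4 air) and of isolated splenic macrophages (5 PM2.5, 5 air) were analysed. The deposited values are raw read counts per gene, made by the authors with HTSeq 0.10.0 on mm10/GRCm38 after FastQC 0.10.1, per the submitters' processing notes. RNA was extracted with an RNeasy kit and libraries made with NEBNext Ultra II, per the labels' protocols. The aligner, annotation release and strand setting are details not given in the sources used here. No label says whether libraries came from separate animals, so p-values measure the spread between these libraries. Totals were 16493694 to 33844807 counts. Intervals from counts would cover counting error only.

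Groups follow the titles, in which CAP marks the exposed libraries and the word Air is in all. Members and gene lists were chosen with earlier results of these data known. Members were named by rule: in each comparison the 2 of smallest p per complex and the 2 highest and 2 lowest fold changes, and throughout complex II, Ndufs1, Ndufv1, Cyc1, Uqcrfs1, Atp5a1, Atp5b and the restricted isoforms with their common partners; per list, the 2 genes of smallest p. Uqcrc1, Klf1, Itgad and the genes of the printed promoters were added after their values were seen. Genes passing filterByExpr (minimum count 10, minimum total count 15) were tested with edgeR 4.0.16 quasi-likelihood fits (R 4.3.3, TMM scaling), each experiment alone for PM2.5 against air and all 18 libraries jointly for the difference and the preparations. Benjamini-Hochberg adjustment ran over all genes tested, and a call is an adjusted p under 0.05. Scores are means of log2(CPM + 1). DESeq2 1.42.0, limma-voom (limma 3.58.1), other scalings, filters, length and GC offsets, a replicate block and leaving out libraries were the alternatives. The fit was tested on simulated counts with changes planted in some genes. It called 4.55% of planted log2 changes of 0.5 in spleen and 20% in macrophages. The shares were 4.76% for the difference and 10.6% between preparations. Of planted changes of 1 it called 44.4%, 76.6%, 33.3% and 43.3%, in the same order. Between preparations the simulated counts differed only in the planted genes, whereas 66.5% of all real genes tested were called. The shares for that comparison therefore do not describe the real fit. Lengths and symbols are from the GENCODE annotation of GRCm38, and 52133 of 55414 identifiers matched it. The other 3281 hold 0.303% of counts.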

Additional observations from a re-analysis of the deposited data

Results flagged for a closer look

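A library counts as standing apart here where its gap to the nearest library of its group, divided by the group's range, exceeds Dixon's 95% value; chance does this in about 1 group in 20. Macrophage PM2.5 replicate 1 did so in 60 of 83 members, always as the highest. That library was the highest of its group in 78 of 83 members, so the flags are not independent of each other. Ribosomal genes and short genes outside the members were higher in it too. The share of all genes flagged in it was not computed. The mean log2(CPM + 1) of macrophage PM2.5 replicate 1 was 6.01 over all members, 5.69 in complex I, 6.40 in complex III, 5.48 in complex IV and 6.98 in complex V. Of the named members of complex I it held Ndufa2 at 68.6 CPM, Ndufa5 at 30.6, Ndufa6 at 57.6, Ndufb4 at 17.3, Ndufb7 at 56.3 and Ndufs3 at 69.1. In complexes II and III it held Sdhb at 118 CPM, Uqcrfs1 at 118, Uqcrh at 134 and Uqcrq at 78.1. In complex IV it held Cox4i1 at 339 CPM, Cox6a1 at 205, Cox6b1 at 100, Cox6c at 89.7, Cox7a2 at 57.7, Cox8a at 155 and Ndufa4 at 74.5. In complex V it held Atp5a1 at 709 CPM, Atp5c1 at 175, Atp5e at 128, Atp5g1 at 65.7, Atp5g2 at 96.5, Atp5g3 at 160, Atp5k at 23.2, Atp5l at 84.3 and Atp5mpl at 57.2.

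Single members stood apart in other libraries. Ndufa5 was lowest in spleen PM2.5 replicate 1 at 24.0 CPM, Sdha was lowest in spleen PM2.5 replicate 3 at 175 CPM, and Cox7a1 was highest in spleen PM2.5 replicate 4 at 1.26 CPM. Cox8a was highest in spleen air replicate 1 at 230 CPM. In macrophage air, Cox6a2 was highest in replicate 5 at 77.3 CPM, and Sdha and Uqcr10 were lowest in replicate 1 at 246 and 29.2 CPM.

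Cox6b1 differed between the preparations in its PM2.5 effect, macrophage minus spleen, by 0.88 on the log2 scale (edgeR test of the difference, adjusted p = 0.047). It was the 1 member called, where 1.46% of all genes tested were. With limma-voom, with the replicate block, or without macrophage PM2.5 replicate 1, no member was called. The macrophage log2 fold change of Cox6b1 was 0.20 with that library and 0.053 without it.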

How the results depend on the processing

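Over the alternatives, 2759 of the log2 fold changes of named genes kept their direction and side of the threshold, 72 passed it, 92 no longer did and 136 changed sign. The sign changes concerned 44 of 114 genes in their comparison. The cause of these changes was not tested. Of 83 members 0, 0, 1 and 70 passed in spleen, in macrophages, for the difference and between preparations. The shares of all genes tested that passed were 0.0121%, 0%, 1.46% and 66.5%. Of all genes, the joint fit called 1050 of 17779 in spleen, the fit with no filter on low counts 461 of 29784, and for the difference DESeq2 called 1024 of 19172, the filter of 1 CPM 323 of 14751 and the threshold of 0.1 1102 of 17779. Values that left that count or changed sign follow. Relative log expression scaling gave in spleen Cox7a1 at 0.0126, and in macrophages Sdhc at -0.000487, and for the difference 0 members called. DESeq2 gave in spleen 15 members called and Cox7a1 at 0.0128, and in macrophages 1 member called and Sdhc at -0.00307, and for the difference 16 members called. limma-voom gave in spleen Cox4i2 at 0.17 and Cox7a1 at 0.0239, and in macrophages Sdhc at -0.0073, and for the difference 0 members called. Leaving out the filter on low counts gave in spleen 5 members called and Cox7a1 at 0.0275, and between preparations Sdhd at 0.029. Length and GC offsets gave in spleen Cox6a2 at 0.0458, Cyc1 at -0.20 and Ndufv1 at -0.0465, and in macrophages Cox8a at -0.0754, Sdhc at -0.00449 and Sdhd at -0.0372, and for the difference Cyc1 at 0.27, and between preparations Cyc1 at -0.0387 and Sdhd at 0.16. The joint fit gave in spleen 14 members called and Cox7a1 at 0.00363, and in macrophages Sdhc at -0.00131. Leaving out spleen air replicates 3 and 4 gave in spleen Atp5b at -0.0457 and Cox7a1 at 0.39, and for the difference 0 members called and Cox4i2 at 0.40, and between preparations Cox6b2 at -0.15. Leaving out spleen PM2.5 replicates 2 and 4 gave in spleen Atp5b at -0.0805, Cyc1 at -0.14 and Ndufv1 at -0.0458, and for the difference 0 members called, Cox6a2 at 0.11, Cox7a1 at 0.27 and Cyc1 at 0.18. A filter of 1 CPM gave in macrophages Sdhc at -0.00726, and for the difference 4 members called. Counting macrophage PM2.5 replicate 1 as air gave in macrophages a member median of -0.12, Atp5a1 at -0.0768, Atp5b at -0.00888, Atp5c1 at -0.029, Atp5g3 at -0.059, Atp5k at -0.24, Cox4i1 at -0.19, Cox6a1 at -0.14, Cox6b1 at -0.0741, Cox7a2 at -0.14, Cox7b at -0.0313, Cox8a at -0.17, Cyc1 at -0.0741, Ndufa4 at -0.12, Ndufs3 at -0.0252, Ndufv1 at -0.0808, Sdha at -0.0275, Sdhb at -0.12, Sdhc at -0.19, Sdhd at -0.13, Uqcrfs1 at -0.15, Uqcrh at -0.14 and Uqcrq at -0.0872, and for the difference 0 members called, a member median of 0.31, Atp5b at -0.0245 and Ndufv1 at -0.14, and between preparations Sdhd at 0.0266. Upper-quartile scaling gave for the difference Cyc1 at 0.00467, and between preparations a member median of -1.14, Atp5a1 at -0.00755, Atp5b at -0.0417, Cox6b2 at -0.0545, Cyc1 at -0.22, Ndufv1 at -0.16 and Sdhb at -0.12. A threshold of 0.1 gave for the difference 28 members called. Using the exposed groups in place of the air groups gave between preparations 40 members called, a member median of -0.24, Cox6a1 at 0.12, Cox6b2 at -0.81, Ndufs1 at 0.13, Sdhd at 0.32 and Uqcrfs1 at 0.26.

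The libraries carry replicate numbers with no stated pairing. Deviations of same-numbered libraries correlated at -0.147 to 0.079 in spleen and -0.153 to 0.352 in macrophages, so the numbers were not taken as pairs. With the replicate block 0 members were called in spleen (median -0.41), 0 in macrophages (0.13) and 67 between preparations (-0.82). Between preparations that fit called 65% of all genes tested. The replicate block gave in spleen Cox4i2 at 0.11 and Cox7a1 at 0.0213, and in macrophages Cox8a at -0.000737 and Sdhc at -0.00867, and for the difference 0 members called. The replicate block with these offsets gave in spleen Cox4i2 at 0.0768, Cox6a2 at 0.0325, Cox7a1 at 0.027, Cyc1 at -0.23 and Ndufv1 at -0.0445, and in macrophages Cox8a at -0.0756, Sdhc at -0.016 and Sdhd at -0.0443, and for the difference 0 members called and Cyc1 at 0.29, and between preparations a member median of -0.65, Cyc1 at -0.0414 and Sdhd at 0.16.

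Leaving out 1 library at a time gave in spleen 0 to 11 members called, Cox6a2 -0.41 to 0.15, Cox7a1 -0.39 to 0.34, Atp5b -0.0475 to 0.0907, Cox4i2 -0.54 to 0.71 and Cyc1 -0.10 to 0.18. The range was in macrophages Atp5a1 -0.0229 to 0.0797, Cox4i1 -0.0261 to 0.25, Cox6a1 -0.00866 to 0.23, Cox7a2 -0.0152 to 0.20, Cox8a -0.10 to 0.0524, Cyc1 -0.0269 to 0.0798, Ndufa4 -0.0257 to 0.14, Sdha -0.00949 to 0.0395, Sdhb -0.0242 to 0.14, Sdhc -0.12 to 0.0763, Sdhd -0.0688 to 0.0983 and Uqcrfs1 -0.0478 to 0.14. The range was for the difference 0 to 36 members called, Cyc1 -0.12 to 0.15, Cox4i2 -1.18 to 0.0556, Cox6a2 -0.36 to 0.20, Cox7a1 -0.43 to 0.30 and Ndufv1 -0.0395 to 0.15. The range was between preparations Cyc1 -0.11 to 0.18, Sdhd -0.20 to 0.01 and Cox6b2 -0.0549 to 0.53.

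With 4 or 5 libraries a group, and 194 counts over 18 libraries for Cox7a1, the rare isoforms are the least precise members. Isolation and experiment differ between the spleen and macrophage libraries, as does the filtered air after exposure, which the labels mention for the macrophage experiment. None of these can be told apart from the material.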
